A study of Drosophila melanogaster with 12 samples.

Results

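The balance between Pho and GFP-Sfmbt chromatin immunoprecipitation (ChIP) signal was measured at the binding summits that the study lists for ovaries of Drosophila melanogaster. All summits of the deposited peak table were taken: 352 rows that hold 351 distinct summits, since 1 summit assigned to twi is in the table on 2 rows and was counted once. The authors assigned these summits to 289 genes. Each summit carries 1 Pho value, 1 GFP-Sfmbt value and 1 value from untagged chromatin, in RPM (reads scaled to the size of the library). Each column was divided by its median over the summits, and the log2 ratio of Pho over GFP-Sfmbt was taken as the balance. A positive balance means relatively more Pho, a negative one relatively more GFP-Sfmbt. The ratio was not used to choose the summits, but the table lists a set that the authors selected, and places bound by only one of the proteins and left off that list were not analysed here.

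The series holds 12 samples in 5 groups. Anti-Pho ChIP was made from ovaries of yw flies, anti-GFP ChIP from ovaries of flies with a GFP-Sfmbt knock-in, and the control anti-GFP ChIP from ovaries of untagged oreR flies, with 2 biological replicates each and chromatin fixed for 10 min in 2% paraformaldehyde. Ovaries of all groups, ChIP and RNA-seq, came from females 2 days old. Pho and GFP-Sfmbt were therefore measured in different strains and with different antibodies, and strain, antibody and protein cannot be told apart in their ratio. RNA-seq came from ovaries in which nanos-Gal4, a germline driver, expressed a UAS-Sfmbt RNAi hairpin (TRiP.HMS00473) or a UAS-mCherry RNAi hairpin as the control, with 3 biological replicates each. Whole ovaries also hold somatic cells, in which that driver does not act, and in such bulk samples fewer cells of a type and less RNA per cell cannot be told apart.

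Pho (Pleiohomeotic) is a zinc finger protein that binds DNA and is the fly counterpart of YY1 of mammals. It recruits Sfmbt, a protein with MBT repeats that bind methylated histone tails, and together they form PhoRC, the Polycomb complex with its own DNA-binding subunit. PhoRC sits at Polycomb response elements, from which the other Polycomb complexes, PRC1 and PRC2, keep developmental genes such as the HOX genes silent, and it is also found at the promoters of many active genes.

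Pho signal had a median of 4.52 RPM over the 351 summits and ran from 0.502 to 124.6 RPM. GFP-Sfmbt signal had a median of 0.886 RPM and ran from 0.244 to 7.72 RPM, and the untagged column had a median of 0.336 RPM and a maximum of 0.924 RPM. All values were within 0.01 steps of a whole multiple of 1 step per column (0.125 RPM for Pho, 0.0153 RPM for GFP-Sfmbt and 0.0420 RPM for untagged). If 1 step is 1 read, the median summit rests on 36 Pho reads and 58 GFP-Sfmbt reads, and the weakest on 4 and 16. Because the table gives 1 value per protein and not 1 per replicate, the spread between replicates is unknown and no summit could be tested. The exact 95% (Clopper-Pearson) intervals given below treat steps as reads and cover counting error only.

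The 2 signals went together over the summits, with a Spearman's rho of 0.678 and a Pearson's r of 0.777 on the log2 scale (n = 351 summits, which share the same libraries). Balances ran from −2.52 to 2.01 on the log2 scale, with a median of 0.05 and an SD of 0.76. Pho exceeded GFP-Sfmbt by 2-fold or more at 36 summits (10.3%), GFP-Sfmbt exceeded Pho by 2-fold or more at 29 (8.26%), and 286 lay within 2-fold. The counting interval lay wholly above 0 at 94 summits and wholly below 0 at 49. The 88 summits with the highest balance are called Pho-leaning here and the 88 with the lowest GFP-Sfmbt-leaning, with 175 in the middle group. The bounds fall in a dense range: Lim3 at 0.64 and eyg at 0.63 lie on either side of the upper one, and CG33144 and ec, both at −0.39, on either side of the lower one.

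**Figure D1:**
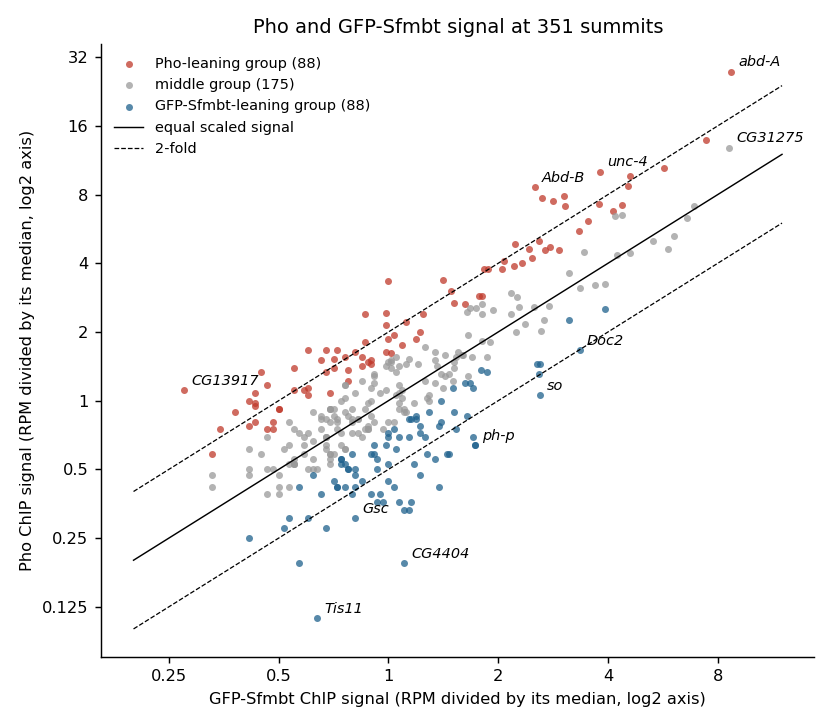
Median-scaled Pho signal (vertical) against median-scaled GFP-Sfmbt signal (horizontal) at 351 summits, both on log2 axes; points are summits, coloured by group of the balance, with the line of equal signal and dashed lines at 2-fold. The cloud climbs more steeply than the line of equal signal, with abd-A at the top right above the upper dashed line and Tis11 at the bottom below the lower one.

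The zero of the balance depends on how the columns are scaled. Dividing by column means in place of medians moved every balance by −0.33, and dividing by the medians of the stronger summits moved it by −0.10. With the means, 12 summits leaned to Pho and 55 to GFP-Sfmbt by 2-fold or more. The order of the summits is the same under each of these scalings, so ranks and outer groups do not depend on them. Counts above or below 0, or past 2-fold, do depend on them and are given below for the medians. Divided by the means, 135 of the 351 summits lay above 0, against 188 with the medians. Of the 25 summits of HOX genes, 17 lay above 0 with the means, against 22 with the medians.

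As a plain ratio the balance went with the Pho signal more than with the GFP-Sfmbt signal. Pho values spread more than GFP-Sfmbt values, with SDs of 1.21 and 0.93 on the log2 RPM scale. The balance had a rho of 0.643 with the Pho RPM, from which it is partly made, and of −0.0600 with the GFP-Sfmbt RPM. The Pho-leaning summits had a median of 8.40 Pho RPM and 0.879 GFP-Sfmbt RPM. The GFP-Sfmbt-leaning summits had a median of 2.57 Pho RPM and 0.940 GFP-Sfmbt RPM. The 88 strongest summits by the mean of both scaled signals had a median balance of 0.58. The next groups of 87, 88 and 88 summits had medians of 0.15, −0.01 and −0.25. When the ratio was replaced by the distance from the sloped line through the cloud (the reduced major axis, slope 1.29), 68 of the 88 Pho-leaning and 75 of the 88 GFP-Sfmbt-leaning summits fell in the same outer group. That distance had a rho of 0.364 with the Pho RPM and of −0.375 with the GFP-Sfmbt RPM. With untagged subtracted from GFP-Sfmbt, the ratio had a rho of 0.214 with the Pho RPM and of −0.358 with the GFP-Sfmbt RPM (n = 330 summits).

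The untagged control bears on the GFP-Sfmbt column only, and no matching control for the anti-Pho antibody was used here. GFP-Sfmbt signal was 2.73-fold the untagged signal at the median summit, 3.05-fold in the Pho-leaning group and 2.61-fold in the GFP-Sfmbt-leaning group. GFP-Sfmbt was under 2-fold untagged at 114 of the 351 summits, among them 27 of the 88 Pho-leaning and 29 of the 88 GFP-Sfmbt-leaning ones. At 21 summits GFP-Sfmbt was at or below untagged. Of these, 8 are among the 36 that leaned to Pho by 2-fold or more, whereas 0 are among the 29 that leaned to GFP-Sfmbt. CG13917, which had the highest balance of the table (2.01), is one of them, with 5.02 Pho RPM, 0.244 GFP-Sfmbt RPM and 0.630 untagged RPM. After the untagged value was subtracted from GFP-Sfmbt, 18 of the 36 summits past 2-fold to Pho and 24 of the 29 past 2-fold to GFP-Sfmbt were still past 2-fold on the same side. Of the 83 summits in each outer group of the subtracted ratio, 46 on the Pho side and 55 on the GFP-Sfmbt side were in the same group of the unsubtracted ratio.

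The summits that leaned most to Pho belonged to genes of several kinds. The 12 highest balances among the 290 summits with 20 steps or more in both columns belonged to Abd-B, CG11023, abd-A (at 2 places), CG9005, CG4025, E(Pc), en, unc-4, opa, Lis-1 and Oda. Abd-B and abd-A are the HOX genes of the abdomen, en and unc-4 encode homeodomain proteins of segments and neurons, and opa a pair-rule zinc finger protein. E(Pc) encodes a subunit of a histone acetyltransferase complex, Lis-1 a dynein regulator and Oda the antizyme of ornithine decarboxylase. Oda is also one of the summits where GFP-Sfmbt (0.382 RPM) was below untagged (0.504 RPM).

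The highest of these was an Abd-B summit at 3R:16969595 (BDGP6, position as deposited), in an intron 2641 bases inside the gene. It had 39.0 Pho RPM, 2.23 GFP-Sfmbt RPM and 0.168 untagged RPM, a balance of 1.78 (counting interval 1.49 to 2.07). The summit with the most signal of the table in both columns, at 3R:16869537, was assigned to abd-A and lies in the noncoding transcript lncRNA:iab8, 39488 bases upstream of abd-A. It had 124.6 Pho RPM, 7.72 GFP-Sfmbt RPM and 0.420 untagged RPM, a balance of 1.66 (1.51 to 1.82). The unc-4 summit on X, 316 bases upstream of the gene, had 45.4 Pho RPM and 3.38 GFP-Sfmbt RPM, a balance of 1.40 (1.15 to 1.65). After subtraction of untagged these 3 balances were 1.18, 1.03 and 0.88, so each was still on the Pho side.

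Strong signal did not always go with a Pho lean. The 5 summits with the most Pho were those of abd-A, Abd-B (62.8 RPM), CG31275 (58.0 RPM), a further Abd-B summit (47.3 RPM) and unc-4. The 5 with the most GFP-Sfmbt were those of abd-A, CG31275 (7.61 RPM), Abd-B (6.59 RPM), Prat2 (6.10 RPM) and grn (5.82 RPM). The CG31275 summit lies in lncRNA:bxd, between Ubx and abd-A, and had a balance of 0.58 (0.39 to 0.77). Prat2, which encodes an enzyme of purine synthesis, and grn, a GATA factor gene, had balances of 0.05 (−0.18 to 0.28) and −0.06 (−0.30 to 0.18), intervals that include 0.

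The summits that leaned most to GFP-Sfmbt likewise belonged to genes of several kinds. The 12 lowest balances among summits with 20 steps or more belonged to ph-p, fs(1)h, Optix, bif, so, feo, inv, CG6465, ss, Doc2, drm and Lim1. Optix, so, inv and Lim1 are homeobox genes, Doc2 a T-box gene, ss a bHLH-PAS gene and drm a zinc finger gene of the odd-skipped family. fs(1)h encodes the BET bromodomain protein that binds acetylated histones, and feo a microtubule-bundling protein of the dividing cell. The fs(1)h summit, in an intron 2822 bases from the gene start, had 2.89 Pho RPM, 1.53 GFP-Sfmbt RPM and 0.210 untagged RPM, a balance of −1.43 (−2.15 to −0.77). The so summit, 82 bases upstream, had 4.77 Pho RPM, 2.31 GFP-Sfmbt RPM and 0.378 untagged RPM, a balance of −1.30 (−1.86 to −0.78). The Doc2 summit, 158 bases upstream, had 7.53 Pho RPM and 2.96 GFP-Sfmbt RPM, a balance of −1.01 (−1.45 to −0.58). With untagged subtracted, these 3 balances were −1.93, −1.76 and −1.61.

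The lowest balances of all rest on few Pho reads. Tis11, which encodes a zinc finger protein of mRNA decay, had 4 Pho steps and 37 GFP-Sfmbt steps at its lower summit, a balance of −2.52 (−4.47 to −1.04). CG4404 had 7 Pho steps and 64 GFP-Sfmbt steps, a balance of −2.50 (−3.88 to −1.38). Of the 29 summits that leaned to GFP-Sfmbt by 2-fold or more, 10 had 20 steps or more in both columns, against 35 of the 36 that leaned to Pho. CycT, the cyclin of the transcription elongation kinase, had a balance of −1.77, but its GFP-Sfmbt signal (1.01 RPM) was close to untagged (0.882 RPM), and with untagged subtracted the balance was 0.51.

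HOX genes stood on the Pho side. Their 25 summits at 7 genes (Abd-B, abd-A, Ubx, Antp, Dfd, pb and ftz) had a median balance of 0.76, against 0.05 over all summits. Of the 25, 15 were Pho-leaning and 1 was GFP-Sfmbt-leaning, 7 were past 2-fold to Pho and 1 to GFP-Sfmbt, and 22 were above 0, as were 188 of the 351 summits. They were also strong summits, with medians of 14.0 Pho RPM and 2.06 GFP-Sfmbt RPM. The median was 0.43 when columns were divided by their means (all summits −0.28), 0.29 for the distance from the sloped line, with 17 of 25 above 0, and 0.29 for the 23 summits left after subtraction of untagged, with 16 above 0. The 88 strongest summits of the table, which are not of HOX genes alone, had a median balance of 0.58, and 41 of the 88 were Pho-leaning. HOX summits are among those 88, and whether the HOX lean differs from that of other strong summits was not tested.

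Homeobox genes as a whole lay nearer to the median of all summits. Their 51 summits at 35 genes, which include the 5 of abd-A, had a median balance of 0.12, with 18 Pho-leaning and 12 GFP-Sfmbt-leaning. Paralogs that lie side by side could differ: the 2 summits of en had balances of 1.41 and 0.98, while those of its neighbour inv had 0.22 and −1.28. T-box genes, which pattern mesoderm and appendages, had a median of −0.25 over 12 summits at 7 genes, from −1.01 at Doc2 to 1.26 at H15. The 11 summits of zinc finger and odd-skipped genes had a median of −0.17 and ran from −0.99 at drm to 1.38 at opa. The GATA genes grn and srp had 3 summits with a median of 0.08, and 9 summits of other developmental regulators, such as ptc, vg, hid and Sox21b, had a median of 0.20.

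**Figure D2:**
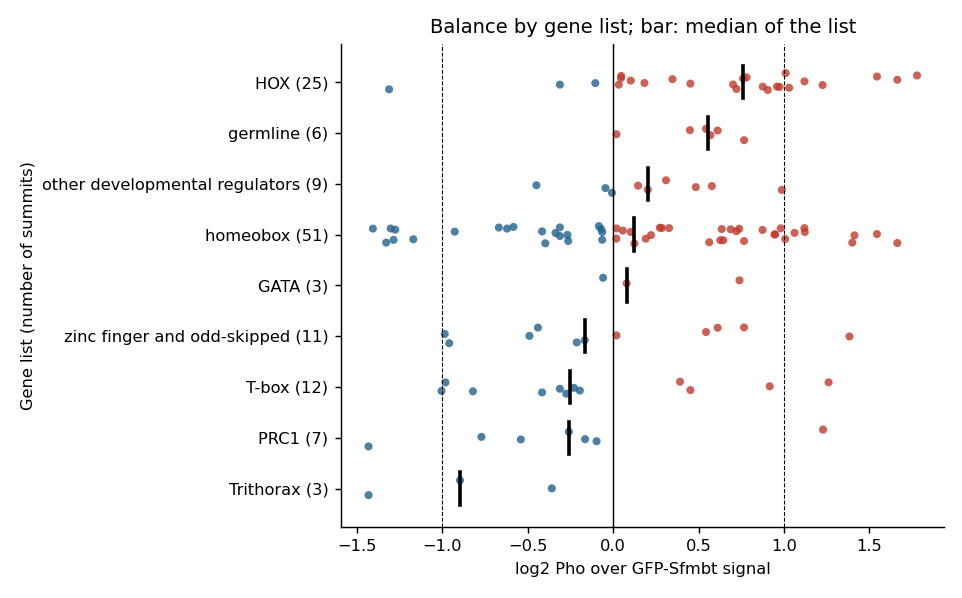
Balance (horizontal, log2 Pho over GFP-Sfmbt) of each summit, by gene list (vertical, number of summits in brackets) for lists with 3 summits or more; points are summits, bars are list medians, and dashed lines mark 2-fold. HOX summits lie mostly right of 0 with a median of 0.76, the 3 Trithorax summits lie left of 0 with a median of −0.90, and homeobox summits spread over both sides. The abd-A summits appear in 2 lists and the chinmo summits in 2.

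Genes of the Polycomb machinery had summits too, although Sfmbt, pho and phol, the genes of PhoRC itself and of the Pho paralog, had 0. Among PRC1 genes, ph-p and ph-d, tandem copies that encode Polyhomeotic, each had 3 summits, and all 6 had balances below 0. Those of ph-p were −0.16, −1.43 and −0.77 and those of ph-d −0.10, −0.54 and −0.26. No source used here says how reads that match both copies were placed, so values at this pair are uncertain. The summit of Scm, whose protein binds both Polyhomeotic and Sfmbt, had a balance of 1.23, but there GFP-Sfmbt (0.336 RPM) was below untagged (0.378 RPM). The PRC2 cofactor gene Jarid2 had −0.29 (−0.90 to 0.29). The genes of the DNA-binding proteins cg and psq had 0.34 (−0.46 to 1.13) and 1.04 (0.44 to 1.64).

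Trithorax group genes oppose Polycomb silencing. Of the 10 listed, 3 had summits, 3 in all. These had balances below 0, whereas 53.6% of all summits were above 0. The chromatin remodeller genes brm and osa had −0.90 (−1.75 to −0.10) and −0.36 (−1.35 to 0.57), and fs(1)h had −1.43. At osa GFP-Sfmbt was below untagged, and with untagged subtracted brm had −0.43 and fs(1)h −1.93. Of the 19 germline genes listed, 3 had summits: chinmo, cona and dhd. Their 6 summits had a median of 0.56 and were all above 0, as were 53.6% of all summits. chinmo, at 0.09 TPM in control ovaries, held 4 of the 6. dhd, which encodes a thioredoxin of the oocyte, had 29.4 Pho RPM and 3.88 GFP-Sfmbt RPM, a balance of 0.57 (0.31 to 0.83). cona, a gene of the synaptonemal complex, had 0.45 (−0.12 to 1.02).

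Summits of one gene often differed in balance. Of the 289 genes, 38 had 2 or more summits, 100 in all. The difference between the highest and lowest balance of a gene had a median of 0.79 and reached 3.26 at Tis11, whose summits had 0.74 and −2.52. In 16 of the 38 genes the summits lay on both sides of 0, and 5 genes had summits in both outer groups. Some of these splits rest on a summit near 0, such as −0.01 at Sox21b and 0.02 at Lim1. For comparison, summits next to each other but over 10 kb apart differed by 0.76 at the median, and 138 of these 291 pairs were on the same side of 0. These measures are unlike, since a range within a gene grows with its number of summits. The pairs also include summits of the same gene, such as Abd-B. The SD of the balance within genes was 0.70, against 0.81 over the same 100 summits without regard to gene.

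Abd-B had the most summits, 8 over 87467 bases, with balances in map order of 0.05, 0.70, 0.88, 1.03, 0.91, −1.31, 1.78 and 1.23. Of these, 7 lay above 0, and the exception, in an intron at 3R:16958536, was a weak summit with 1.88 Pho RPM and 0.917 GFP-Sfmbt RPM. Pho relative to GFP-Sfmbt differed 8.52-fold between the extreme summits of this gene, and without the weak one balances ran from 0.05 to 1.78. The 5 summits of abd-A were all above 0, at 0.72, 1.54, 1.12, 0.10 and 1.66, and the 6 of Antp ran from −0.31 to 0.96. hth, a homeobox gene whose protein is a cofactor of HOX proteins, had 5 intronic summits between −1.17 and 1.12. chinmo, which encodes a BTB zinc finger factor, had 4 summits at 0.77, 0.61, 0.02 and 0.54.

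**Figure D3:**
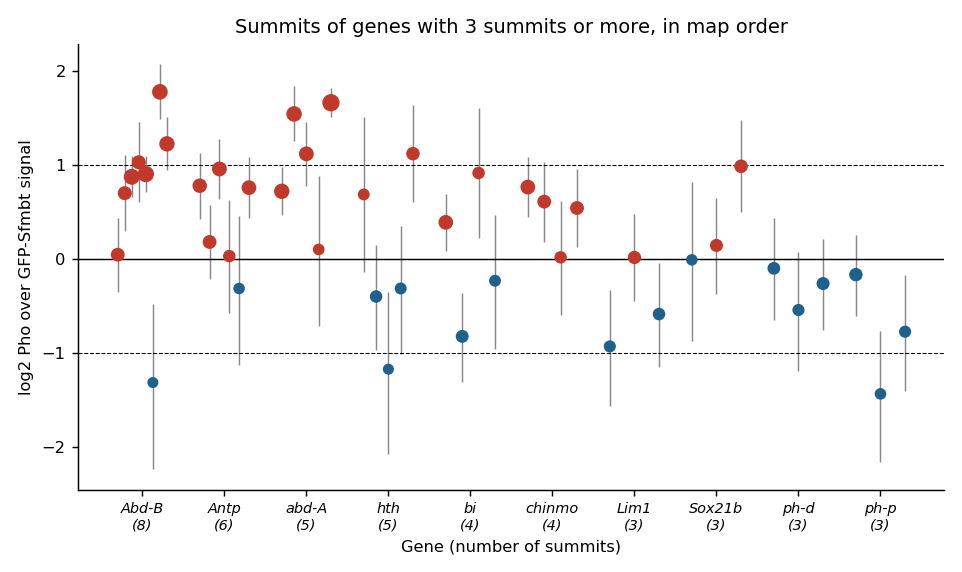
Balance (vertical, log2 Pho over GFP-Sfmbt) of every summit of the genes with 3 summits or more (horizontal, number of summits in brackets), in map order within a gene; grey bars are 95% counting intervals, larger points have more Pho RPM, and dashed lines mark 2-fold. Abd-B and hth hold summits past 2-fold on both sides, the summits of abd-A and chinmo all lie above 0 and those of ph-d and ph-p all below.

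Summits that lay very close together differed least. Among summits next to each other on a chromosome, 17 pairs lay under 1 kb apart, with a median difference in balance of 0.41, and 15 of them were on the same side of 0. The 38 pairs 1 to 10 kb apart differed by 0.84 at the median, with 20 on the same side, and the 291 pairs over 10 kb apart by 0.76, with 138 on the same side. No source used here gives the window of the RPM values, and close summits may count some of the same reads. Between chromosome arms the median balance was 0.02 on 2L, 0.25 on 2R, −0.01 on 3L, 0.09 on 3R and −0.14 on X.

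Distance to the assigned gene went with the balance only weakly. Gene starts were taken as the outermost 5′ end of the gene model, and 191 summits lay within 1 kb, 95 at 1 to 10 kb and 65 over 10 kb. The median balance in these classes was 0.01, 0.20 and 0.10. The rho of balance with absolute distance was 0.111 over 351 summits. Of the Pho-leaning summits 43 (48.9%, interval 38.1 to 59.8) lay within 1 kb, and of the GFP-Sfmbt-leaning ones 48 (54.5%, 43.6 to 65.2), against 54.4% of all summits. The median distance was 1326 bases for the Pho-leaning and 823 bases for the GFP-Sfmbt-leaning summits. With untagged subtracted the rho was −0.0447, of opposite sign. Without the summits of abd-A, Abd-B and Ubx (n = 336) the unsubtracted rho was 0.0739. In that set 56.0% of the Pho-leaning and 56.0% of the GFP-Sfmbt-leaning summits lay within 1 kb. Untagged signal itself had a rho of −0.219 with distance, that is, it was higher near gene starts.

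By position relative to the assigned gene, 72 summits lay in exons, 103 in introns, 148 upstream and 28 downstream. Their median balances were 0.10, 0.03, −0.04 and 0.25. Of the 28 downstream summits, 9 were Pho-leaning and 3 GFP-Sfmbt-leaning, and 4 of the 28 belong to Abd-B and 2 to ftz. For 264 of the 351 summits the assigned gene is also the gene with the nearest start.

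Expression of the assigned gene in control ovaries likewise went with the balance only weakly. The authors' mean TPM (a transcript level per gene length and library size) in mCherry RNAi ovaries was under 1 for 135 summits, 1 to 10 for 44 and 10 or more for 172, and the median balance in these classes was 0.06, 0.07 and 0.01. The rho of balance with TPM was −0.0394, and within 1 kb of the gene start it was 0.0723 (n = 191) and beyond it −0.107 (n = 160). Each signal alone tended to be lower at more highly expressed genes, with a rho of −0.194 for Pho and −0.228 for GFP-Sfmbt, while the median of their ratio was similar in all 3 classes.

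Genes at 1 TPM or more held 49 of the 88 Pho-leaning summits (55.7%, interval 44.7 to 66.3) and 58 of the 88 GFP-Sfmbt-leaning ones (65.9%, 55.0 to 75.7), against 61.5% of all summits. With untagged subtracted these shares were 67.5% and 55.4% of 83 summits each, the opposite order, and the rho was 0.105. The sign of this rho also differed for the distance from the sloped line (0.0532). The median TPM was 1.55 in the Pho-leaning and 23.1 in the GFP-Sfmbt-leaning group, against 7.65 over all summits. These medians count a gene once per summit, and 1.55 is the TPM of abd-A, which has several Pho-leaning summits.

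**Figure D4:**
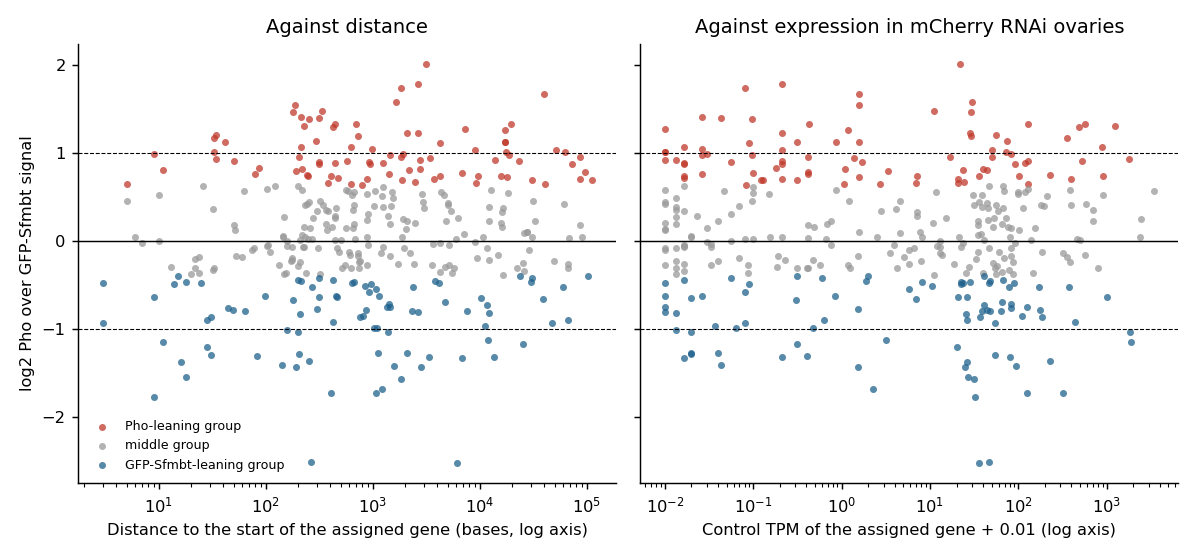
Balance (vertical, log2 Pho over GFP-Sfmbt) against distance to the start of the assigned gene in bases (left, log axis) and against the authors' mean control TPM plus 0.01 (right, log axis) for 351 summits, coloured by group of the balance; dashed lines mark 2-fold. Both outer groups extend over the whole range of distance and of TPM, with a rho of 0.111 on the left and −0.0394 on the right.

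Summits of the most highly expressed genes lay on both sides of 0. These genes were picked after their values were seen: 11 summits belong to the 10 genes with the highest control TPM, from 897 TPM at Jafrac1 to 3434 TPM at dhd. Several encode members of multigene families, such as tubulin and actin, whose reads can be hard to place. Of the 11 summits 8 were above 0 (72.7%), against 53.6% of all summits. Balances were 1.31 at alphaTub84B, 1.07 at Jafrac1, 0.93 at RpS5b, 0.74 and 0.53 at the 2 summits of CycB, 0.57 at dhd, 0.24 at RpL37a and 0.05 at sta. They were −1.15 at Tctp, −1.03 at Act5C and −0.63 at 26-29-p. Division by column means, which moves every balance by −0.33, puts RpL37a and sta below 0. With untagged subtracted, Tctp moved to 0.24, and its GFP-Sfmbt signal (1.04 RPM) was near untagged (0.798 RPM). At sta GFP-Sfmbt (0.642 RPM) was below untagged (0.714 RPM).

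The RNA-seq gave a readout that the ratio did not use. In edgeR's quasi-likelihood test with Benjamini-Hochberg adjustment at 0.05, 3350 of 9667 tested genes (34.7%) differed between Sfmbt RNAi and mCherry RNAi, 1470 higher (15.2%) and 1880 lower (19.4%). Sfmbt itself had 43.8, 43.8 and 36.7 CPM (counts scaled to library size) in the Sfmbt RNAi libraries, against 146, 122 and 123 CPM in the mCherry RNAi libraries. RNA of pho fell too, with 127, 146 and 130 CPM in Sfmbt RNAi against 197, 228 and 254 CPM in mCherry RNAi. Its log2 change was −0.75 (SE 0.11, adjusted p = 0.0027 in edgeR), while phol was not called (log2 change −0.19, adjusted p = 0.176 in edgeR). Of the 289 genes with a summit, 224 passed the filter on low counts, and 38 of the 289 rose and 37 fell.

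Genes of both leans included rises and falls. Of the 75 genes with a Pho-leaning summit 56 were tested, and 12 of the 75 rose (16%) and 9 fell (12%). Of the 83 genes with a GFP-Sfmbt-leaning summit 65 were tested, and 11 of the 83 rose (13.3%) and 14 fell (16.9%). As shares of the tested genes alone, 21.4% rose and 16.1% fell at Pho-leaning genes, and 16.9% rose and 21.5% fell at GFP-Sfmbt-leaning genes. Among all tested genes 15.2% were higher and 19.4% lower, and neither the difference from these shares nor that between the leans was tested. Called rises of 2-fold or more were 3 at Pho-leaning genes (5.36% of those tested) and 5 at GFP-Sfmbt-leaning genes (7.69%), against 10 of 124 tested genes of the middle group (8.06%) and 5.18% of all tested genes. Called falls of 2-fold or more were 0 in both outer groups and 4 in the middle group (3.23%), against 4.62% of all tested genes. The 5 genes with summits in both outer groups count in both. Without mCherry RNAi replicate 2 the counts were 6 rises and 5 falls at Pho-leaning genes, and 7 rises and 9 falls at GFP-Sfmbt-leaning genes. At Pho-leaning genes there were likewise 6 rises and 5 falls without mCherry RNAi replicate 3, and 5 falls without Sfmbt RNAi replicate 1.

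The genes that rose most had balances on both sides of 0. Gsc, a homeobox gene, had a balance of −1.41 (−2.50 to −0.44) from 11 Pho and 47 GFP-Sfmbt steps. It had 9.43, 9.87 and 11.9 CPM in Sfmbt RNAi, against 0.0208, 0.0435 and 0.0296 CPM in mCherry RNAi (log2 change 8.25, SE 0.34, adjusted p = 1.08e-05 in edgeR). All Sfmbt RNAi libraries were far above all mCherry RNAi libraries.

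CG32814 had a balance of −0.62 and 90.9, 85.9 and 101.6 CPM in Sfmbt RNAi, against 1.43, 1.41 and 1.15 CPM in mCherry RNAi. CG9650, which encodes a zinc finger factor, had a balance of −0.90, with GFP-Sfmbt (0.458 RPM) close to untagged (0.420 RPM), and a balance of 1.96 with untagged subtracted. Its RNA had 39.2, 29.4 and 37.4 CPM in Sfmbt RNAi, against 3.49, 3.65 and 3.76 CPM in mCherry RNAi. In both genes the groups did not overlap.

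dpr18, an immunoglobulin-domain gene of neurons, had a balance of −0.30 and a log2 fold change of 5.98 ± 0.23 (SE). chinmo and cona, on the Pho side with median balances of 0.58 and 0.45, had log2 fold changes of 4.77 ± 0.16 and 3.47 ± 0.28 (SE). CG43337, with summits at −0.27 and −0.04, had 54 fragments over the Sfmbt RNAi libraries and 3 over the mCherry RNAi libraries. All 7 of these genes, which are the summit genes with a fitted rise of 8-fold or more, were also called in each of the 10 alternative fits.

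Of the 31 genes with a summit past 2-fold to Pho 23 were tested, and 3 rose (13.0% of those tested) and 4 fell (17.4%). Of the 29 with a summit past 2-fold to GFP-Sfmbt 23 were tested, and 4 rose (17.4%) and 5 fell (21.7%). Shares of all tested genes were 15.2% higher and 19.4% lower. At the Pho end unc-4 rose most. It had 0.506, 0.550 and 0.689 CPM in Sfmbt RNAi, against 0.146, 0.0435 and 0.118 CPM in mCherry RNAi (log2 change 2.48, SE 0.46, adjusted p = 0.007 in edgeR). The groups did not overlap, but the level stayed under 1 CPM. psq had 472, 388 and 421 CPM in Sfmbt RNAi, against 294, 236 and 239 CPM in mCherry RNAi (log2 change 0.74, SE 0.12, adjusted p = 0.004 in edgeR). The HOX genes Abd-B, abd-A, Antp and Ubx differed by −0.20, 0.20, −0.22 and 0.05 on the log2 scale, none of them called in edgeR (adjusted p from 0.707 to 0.953), and ftz, pb and Dfd were below the count filter.

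On the GFP-Sfmbt side the PRC1 gene ph-p had 36.4, 32.9 and 36.1 CPM in Sfmbt RNAi, against 6.63, 7.50 and 7.51 CPM in mCherry RNAi, without overlap (log2 change 2.28, SE 0.10, adjusted p = 1.22e-05 in edgeR). Its tandem copy ph-d had 34.5, 30.6 and 33.5 CPM in Sfmbt RNAi, against 29.1, 28.2 and 28.0 CPM in mCherry RNAi. The difference for ph-d did not pass (log2 change 0.21, SE 0.07, adjusted p = 0.0598 in edgeR), while it passed with RLE scaling (adjusted p = 0.041) and in DESeq2 (adjusted p = 0.0327). The split of fragments between the 2 copies is uncertain.

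Other genes of the Polycomb and Trithorax lists showed small differences. Scm, cg and Jarid2 differed by −0.07, 0.10 and 0.06 on the log2 scale, and fs(1)h and osa by 0.14 and 0.25, none of them called in edgeR (adjusted p from 0.0934 to 0.769). The difference for osa passed in DESeq2 (adjusted p = 0.0254) and in edgeR without mCherry RNAi replicate 1 (adjusted p = 0.0276), and in the other 8 alternative fits its adjusted p was 0.0734 to 0.292. brm fell slightly (log2 change −0.31, SE 0.07, adjusted p = 0.0154 in edgeR), a call lost without Sfmbt RNAi replicate 2 (0.0589) and without mCherry RNAi replicate 2 (0.0615).

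Genes at the ends of the balance ranged from no call to the large rise of Gsc. CG13917, with the highest balance, had a log2 fold change of 0.03 ± 0.11 (SE) and was not called. E(Pc), with a summit at 1.47, had 0.11 ± 0.10 (SE) and was not called, whereas unc-4, at 1.40, rose with a log2 change of 2.48. Tis11, with the lowest balance, rose slightly (log2 change 0.38, SE 0.07, adjusted p = 0.0056 in edgeR). CG4404 fell slightly (log2 change −0.31, SE 0.08, adjusted p = 0.0187 in edgeR), a call lost without Sfmbt RNAi replicate 1 (0.0689), mCherry RNAi replicate 2 (0.0799) or mCherry RNAi replicate 3 (0.0582).

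**Figure D5:**
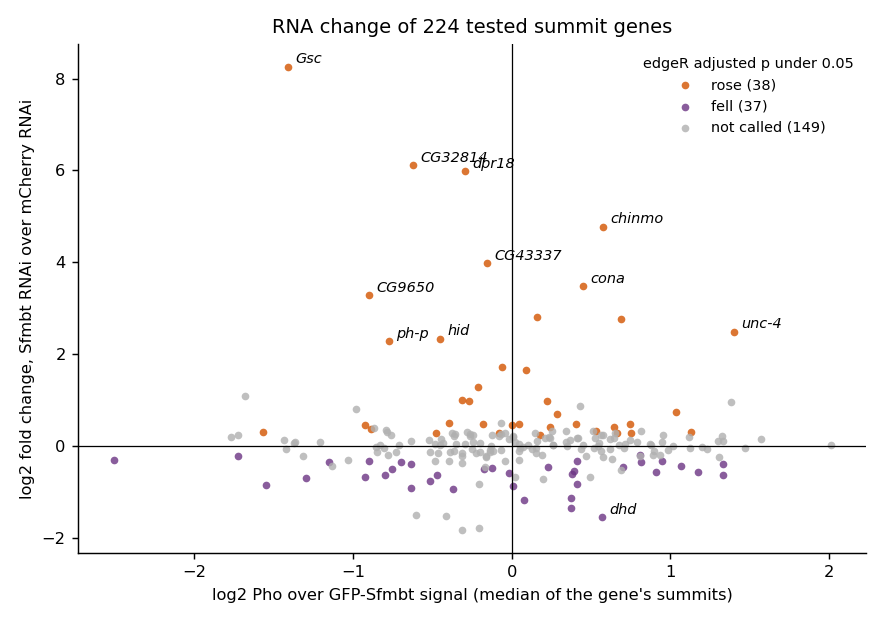
Log2 fold change of RNA in Sfmbt RNAi over mCherry RNAi (vertical, edgeR) against the median balance of the gene's summits (horizontal, log2 Pho over GFP-Sfmbt) for 224 tested summit genes; orange genes rose (38), purple genes fell (37), grey genes were not called. Called genes lie on both sides of 0, and the genes that rose most, from Gsc to CG9650, lie between −1.41 and 0.58.

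Cell type markers moved between the RNA groups. Summed CPM of the follicle cell markers was 9646 to 16730 in Sfmbt RNAi, against 23275 to 30138 in mCherry RNAi, with 3 of 6 called (Fas3, Cp36 and Cp38). Germline markers summed to 1006 to 1194 CPM in Sfmbt RNAi and 817 to 1092 CPM in mCherry RNAi, with 3 of 5 called, and the markers of the labelled tissue were present in all libraries. Testis markers summed to 5.54 to 7.80 CPM in Sfmbt RNAi and 0.957 to 1.54 CPM in mCherry RNAi, with 1 of 4 called (aly), and gut markers to 0.240 to 77.8 CPM in Sfmbt RNAi and 104.9 to 1097 CPM in mCherry RNAi, with 0 of 3 called. Muscle sheath markers summed to 338 to 1066 CPM in Sfmbt RNAi and 675 to 922 CPM in mCherry RNAi (0 of 3 called), and fat body markers to 21.2 to 98.2 CPM and 37.0 to 123.5 CPM in the same order (0 of 2 called). No marker was at 0 in all libraries, and the part of these shifts in the RNA changes above was not tested. Libraries held 34057506 to 51297961 counted fragments.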

How the data were processed

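Per the labels, 3 ChIP groups of 2 and 2 RNA groups of 3 biological replicates were profiled. RPM values in the deposited peak table are the authors' own, 1 per summit and group; no source used here gives the pooling of replicates, the peak caller or the window. The submitters' processing notes name Bowtie2, STAR 2.7.2a, deepTools 3.5.0, featureCounts 1.6.3 and build BDGP6. The deposited table also holds the authors' mean TPM, and their log2 fold changes and adjusted p-values, which served only to check the reading of the count columns (r = 0.993 across 224 genes; all 94 genes they call had the same sign). The authors' rank score was not used. RNA counts were deposited as fragments per BDGP6.28 gene, per the file headers. Columns lettered C were read as mCherry RNAi and those lettered A, by elimination, as Sfmbt RNAi. Of 289 genes, 286 matched the count table by ID and 3 by symbol or synonym.

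Distances were computed to the gene models of the count table. Counts were fitted with edgeR 4.0.16 in R 4.3.3, after filterByExpr (minimum count 10) and TMM scaling, by the robust quasi-likelihood test, group as the only term. On simulated counts for this comparison (9581 genes) 106 of 110 genes changed by a log2 of 1 and 87 of 87 changed by 2 were recovered, with 7 false calls. The simulation gave every gene the same dispersion and changed far fewer genes than the 34.7% called in the data. Its recovery therefore checks the code and does not give the error rate of the real fit. DESeq2 1.42.0 was an alternative. Shares carry exact (Clopper-Pearson) 95% intervals. Members, gene lists and tests were chosen with earlier results of these data known. Genes were named if among the 12 highest or lowest balances with 20 steps or more, the 5 strongest per ChIP column, a listed gene, a gene with 3 summits or more, or a summit gene changed 8-fold or more; others were singled out after their values were seen, namely CG13917, Tis11, CG4404, CycT, the genes at the group bounds and the most expressed genes.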

Additional observations from a re-analysis of the deposited data

How the results depend on the processing

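Of the values recomputed under other settings, 294 were classed as the same, 21 moved, 4 gained and 2 lost a call. Called values that changed sign numbered 0. Shares classed as the same lay within their exact interval. For counts the class was not an error bound and took in sizeable shifts. With DESeq2, 1818 genes were higher, against 1470, and 16 GFP-Sfmbt-leaning genes rose, against 11. With the medians of the stronger summits, 28 summits leaned to Pho by 2-fold or more, against 36. Among values without a call 7 changed sign: 4 rank correlations and 3 log2 fold changes. The rho of balance with TPM (−0.0394) was 0.0099 over summits with 20 steps or more in both columns and 0.0532 for the distance from the sloped line, and both rhos changed sign with untagged subtracted. The log2 fold change of Scm was 0.0064 without Sfmbt RNAi replicate 1, and that of Jarid2 −0.0417 without Sfmbt RNAi replicate 3 and −0.030 without mCherry RNAi replicate 3. The cause of each shift was not tested. With columns divided by their means, 12 summits leaned to Pho and 55 to GFP-Sfmbt by 2-fold or more. With untagged RPM subtracted (330 summits), 56 leaned to Pho, the rho of balance with distance was −0.0447 and that with TPM 0.105, and 67.5% of Pho-leaning summits were at genes of 1 TPM or more. With 20 steps or more in both columns, 10 summits leaned to GFP-Sfmbt by 2-fold or more. Within 500 bases of the gene start lay 37.5% of Pho-leaning summits, within 2000 bases 69.3% of GFP-Sfmbt-leaning summits, and 43.2% of Pho-leaning summits were at genes of 5 TPM or more.

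Leaving out 1 RNA library gave 706 to 1452 genes higher and 1050 to 1843 lower in Sfmbt RNAi. At Pho-leaning genes it gave 6 to 12 rises and 5 to 7 falls, and at GFP-Sfmbt-leaning genes 7 to 16 rises and 9 to 14 falls. Same-numbered libraries had correlations of 0.324, 0.335 and −0.0907 in their deviations from the group means, so the numbers were not taken to pair the samples, and number 1 alone was the best match of its own number in both groups. With the replicate number as a block, 1245 genes were higher and 1714 lower; at Pho-leaning genes there were 12 rises and 6 falls and at GFP-Sfmbt-leaning genes 13 and 12. Another 3 alternatives were added after the data were seen: summits with GFP-Sfmbt above untagged, summits outside abd-A, Abd-B and Ubx, and, for the rho with TPM, 1 summit per gene. A planned search for motifs at the summits was not run, as no genome was used here. Depth limits the weakest summits: the Pho column steps by 0.125 RPM, so 1 step moves a summit of 4 steps far more than one of 36.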
